A study of Homo sapiens with 3 samples.

Results

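The genes described here make ribosomes in the nucleolus: subunits and factors of RNA polymerase I, proteins of the small nucleolar ribonucleoproteins (snoRNPs), and assembly factors of the 40S and 60S subunits. They were chosen by name, as a list of 55 symbols drawn up with earlier results of these data known. Of the 17329 gene rows measured in Jurkat cells, 54 matched a listed symbol directly. UTP4 was found under its older symbol CIRH1A, so all 55 genes had a value. Polyadenylated RNA came from Jurkat, an established human T-lineage acute lymphoblastic leukaemia cell line, after 48 h in RPMI 1640 with serum. The control culture received no addition. Sodium oxamate, which blocks lactate dehydrogenase and so the making of lactate from pyruvate, was given at 50 mM to the oxamate culture. The oxamate+lactate culture had the same 50 mM sodium oxamate and also 10 mM L-sodium lactate. The study asked how lactylation of histone H3 at lysine 18 relates to transcription, and neither lactate nor that mark was measured in these libraries. Each condition had 1 library from 1 cell line, and the labels do not say how many cultures stand behind it, so the differences below come without replicates, standard errors or p-values. "Higher" and "lower" compare libraries, not conditions, and in bulk RNA a change in the make-up of the culture and a change of RNA per cell cannot be told apart.

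RNA polymerase I transcribes the long ribosomal RNA precursor from the ribosomal DNA repeats, with the help of UBTF, the selectivity factor SL1 and the initiation factor RRN3. Box C/D and box H/ACA snoRNPs then guide 2'-O-methylation and pseudouridylation of the precursor, while the small-subunit processome and the pre-60S particles fold, cleave and export it. Many of these genes are known targets of the transcription factor MYC, a driver of growth in T-lineage leukaemia. Ribosomal RNA itself and mature snoRNAs are not polyadenylated, so the values below are messenger RNA levels of the protein factors and do not measure ribosome production.

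Values are normalized read counts as deposited. Their sum over all gene rows was 8220199 for the control library, 8821115 for oxamate and 8171633 for oxamate+lactate, while the depth in reads is unknown. Ratios are log2((value + 1)/(value + 1)), and they are set beside those of 12292 genes that averaged 50 or more across the libraries. All 55 genes passed that floor. The median log2 ratio over the 12292 genes was 0.08 for oxamate against control, -0.09 for oxamate+lactate against oxamate and -0.01 for oxamate+lactate against control. Among 18 ERCC spike-in RNAs with a mean of at least 100, the median log2 ratio in these comparisons was 0.00, -0.08 and -0.08. The SD of their log2 ratio was 0.13, 0.11 and 0.19. The spike-ins were added to extracted RNA, so they carry no variation of the cultures. Of 14 T-lineage markers, 13 had a row, with summed values between 17581 and 21025, and the summed values of 3 B-lineage markers lay between 69 and 92 and those of 3 stromal and epithelial markers between 248 and 298. The myeloid and erythroid markers listed were not analysed here, for want of a row.

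In the oxamate library most ribosome biogenesis genes were higher than in control, by small amounts. The median log2 ratio of the 55 genes was 0.29, with values from -0.26 for POLR1D to 1.08 for PPAN. Of the 55, 46 had a ratio above 0, against 59.6% of all genes, and 41 lay above the median of all genes, against 50.0%. A fold of 1.2 was used as the main threshold, because the ratios of these genes were expected to be small. By that threshold 30 genes (54.5%) were higher, against 28.8% of all genes, and none was lower, against 15.1%. Only NOLC1, POLR1C, RRS1, GRWD1 and PPAN reached 1.5-fold higher (7.48% of all genes did), and PPAN alone reached 2-fold (1.21%). None was lower by 1.5-fold (3.98%) or by 2-fold (0.879%). Of the genes 1.5-fold higher, all but NOLC1 share exon bases with another coding gene in the annotation. DKC1 stood exactly on the 1.2-fold threshold. Scaling the columns to equal sums over genes moved the median of all genes from 0.08 to -0.02. The 55 genes then had a median of 0.19, with 22 higher and 1, POLR1D, lower. The shares of all genes above hold for the values as deposited and are not given for this scaling. The median of the 55 genes stood 0.21 above that of all genes. A scaling of whole libraries leaves this distance nearly as it is, so the 3 other scalings are no separate check of it. The SD over the 55 genes was 0.27 against 0.38 over all genes.

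**Figure D1:**
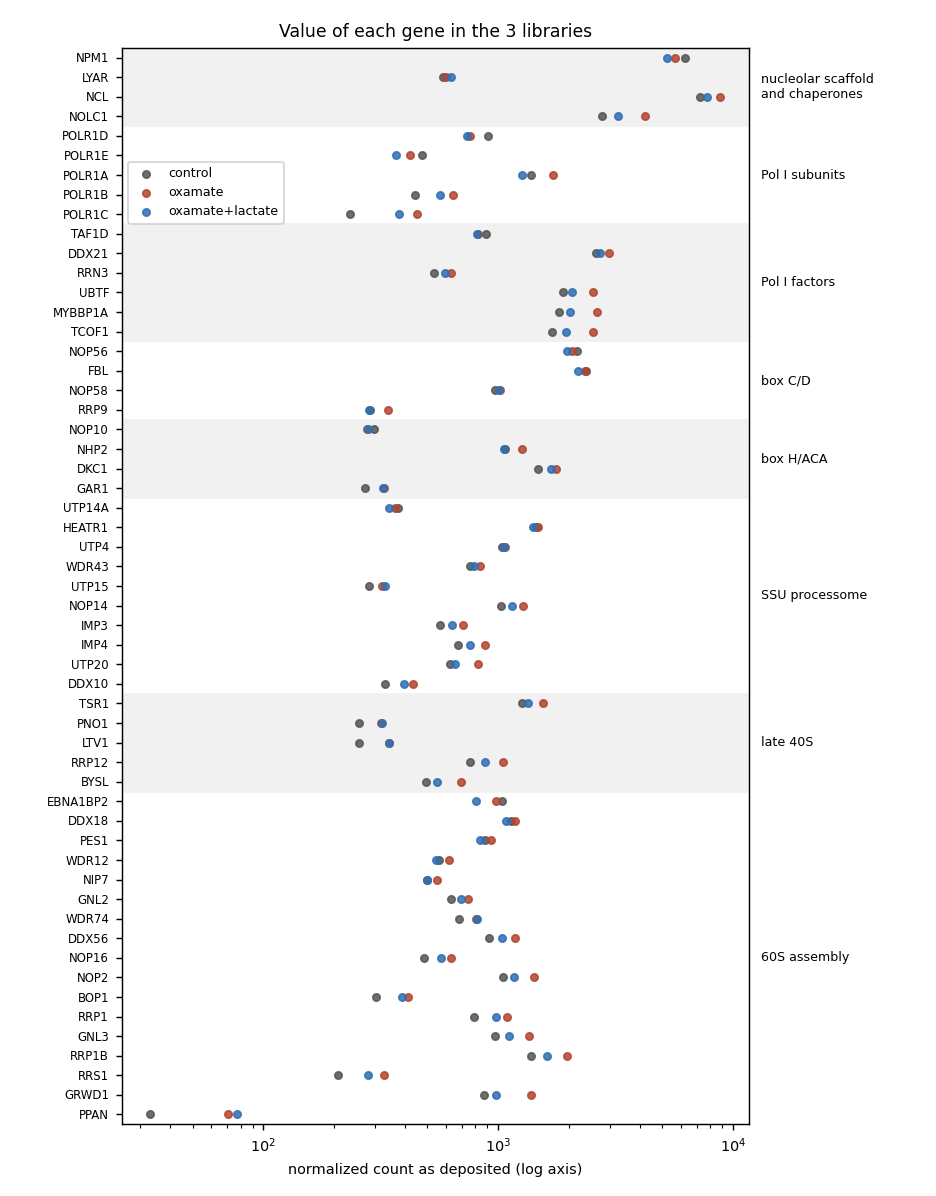
Normalized count (log axis) of each of the 55 genes in the control, oxamate and oxamate+lactate libraries, 1 point per library, grouped by role. The values run from 33 for PPAN in control to 8820 for NCL in oxamate, and for NOLC1, UBTF, TCOF1 and GRWD1 the oxamate point lies to the right of the other two.

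The abundant nucleolar proteins did not move together. NCL, which encodes nucleolin, a histone chaperone and pre-rRNA binding protein, had 7221 normalized counts in control, 8820 with oxamate and 7742 with oxamate+lactate. NPM1, encoding nucleophosmin, a nucleolar chaperone, had 6216, 5655 and 5256. NOLC1, encoding Nopp140, which shuttles with snoRNPs and binds RNA polymerase I, had 2767, 4196 and 3229. For oxamate against control the log2 ratios were thus 0.29 for NCL, -0.14 for NPM1 and 0.60 for NOLC1, which put NPM1 on the opposite side of the median of all genes. LYAR, a nucleolar zinc-finger protein, had 584, 598 and 629, close to level between the libraries. GENCODE names 45 pseudogenes after NPM1, and since the treatment of reads shared with such copies is not known, the value of NPM1 is uncertain.

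Subunits of RNA polymerase I went in both directions. POLR1A, the largest subunit, which forms the catalytic centre with POLR1B, had 1375 in control, 1712 with oxamate and 1266 with oxamate+lactate. POLR1B had 444, 645 and 564. POLR1C, a subunit of the assembly platform shared with RNA polymerase III, had 235, 453 and 378. All of these were lowest in control or, for POLR1A, in oxamate+lactate, and highest in oxamate. POLR1D, the partner of POLR1C in that platform, had 904, 756 and 735, and POLR1E, a subunit that stimulates initiation, had 472, 422 and 367. POLR1D and POLR1E were highest in control. The log2 ratios of oxamate against control were 0.32 for POLR1A, 0.54 for POLR1B, 0.94 for POLR1C, -0.26 for POLR1D and -0.16 for POLR1E. POLR1C shares exon bases with LRRC73, XPO5 and YIPF3 in the annotation. Strand was not kept in library preparation, so reads from those overlaps cannot be told apart from its own.

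Regulators of RNA polymerase I were mostly higher in oxamate. UBTF, the upstream binding factor that keeps ribosomal DNA open, had 1883 in control, 2522 with oxamate and 2056 with oxamate+lactate. TCOF1, encoding treacle, a nucleolar scaffold that works with UBTF, had 1697, 2532 and 1949. MYBBP1A, a nucleolar MYB-binding protein, had 1816, 2634 and 2019. The oxamate value was the highest for each, with log2 ratios against control of 0.42, 0.58 and 0.54. RRN3, encoding TIF-IA, the factor that couples polymerase activity to growth signals, had 533, 631 and 591 (0.24), and DDX21, an RNA helicase of the nucleolus, had 2603, 2964 and 2703 (0.19). TAF1D, a subunit of SL1, was the exception at 891, 817 and 813 (-0.12). RRN3 has 3 named pseudogenes, MYBBP1A shares exon bases with SPNS2, and TAF1D with C11orf54.

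The core proteins of the box C/D snoRNP differed little between libraries. FBL, encoding fibrillarin, the 2'-O-methyltransferase, had 2376 in control, 2343 with oxamate and 2191 with oxamate+lactate. Its partners NOP56 and NOP58 had 2160, 2054 and 1966, and 970, 1021 and 1006. None of these reached a fold of 1.2 in any of the comparisons. RRP9, a protein specific to the U3 snoRNP, had 285, 340 and 282, higher in oxamate than in either other library. The median of these 4 genes for oxamate against control was 0.03, below that of all genes. Of the box H/ACA proteins, DKC1, encoding the pseudouridine synthase dyskerin, had 1474, 1769 and 1677, and GAR1 had 270, 328 and 324. NHP2 had 1072, 1262 and 1061, and the small protein gene NOP10 had 295, 277 and 279. The 4 had a median of 0.25, with GAR1 past 1.2-fold, DKC1 on that threshold and NOP10 at -0.09.

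Factors of the small subunit leaned upward in oxamate, and most clearly those of late maturation. Of 10 processome genes, 5 were at least 1.2-fold higher than in control (28.8% of all genes were) and none lower (15.1%), with a median of 0.25. DDX10, an RNA helicase, had 329 in control, 435 with oxamate and 396 with oxamate+lactate. UTP20, a large scaffold of the processome, had 625, 821 and 652. UTP14A, a helicase cofactor, had 374, 362 and 342, and was the lowest of the group at -0.05. IMP3 and IMP4, which pair the U3 snoRNA with the precursor, and NOP14, also of the processome, had ratios of 0.32, 0.37 and 0.30. HEATR1 and UTP4, of the subcomplex that also bears on ribosomal DNA transcription, had ratios of 0.04 and 0.04, whereas UTP15 of the same subcomplex had 0.19 and WDR43 had 0.14. All 5 late 40S factors were at least 1.2-fold higher, against 28.8% of all genes, with a median of 0.42. BYSL, a factor of 40S export from the nucleus, had 493, 697 and 548 (0.50), RRP12 had 759, 1044 and 876 (0.46) and TSR1, a GTPase-like factor, had 1268, 1549 and 1343 (0.29). LTV1 had 255, 342 and 342 (0.42), and PNO1, a KH-domain factor at the 3' end of 18S rRNA, had 256, 316 and 321 (0.30). For LTV1 and PNO1 the oxamate+lactate library was as high as the oxamate library or slightly higher.

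The 17 genes of 60S assembly had a median of 0.38 for oxamate against control. At least 1.2-fold higher were 10 of them (58.8%), against 28.8% of all genes, and none was lower, against 15.1%. GRWD1, a WD-repeat histone-binding protein of the pre-60S particle, had 866 in control, 1374 with oxamate and 978 with oxamate+lactate (0.67). RRS1, which brings the 5S RNP into the particle, had 209, 328 and 278 (0.65). RRP1B and its paralogue RRP1 had 1381, 1961 and 1616 (0.51), and 785, 1092 and 978 (0.48). In each of these the oxamate value was the highest and the control value the lowest. GNL3, encoding the GTPase nucleostemin, had 971, 1356 and 1115 (0.48), while its relative GNL2 had 630, 741 and 695 (0.23). The rRNA cytosine methyltransferase gene NOP2 had 1053, 1424 and 1173 (0.44). The PeBoW complex, which acts in processing of the large-subunit rRNA, was uneven: BOP1 had 303, 412 and 390 (0.44), PES1 had 876, 928 and 838 (0.08) and WDR12 had 559, 617 and 544 (0.14). EBNA1BP2 was the exception of the group, with 1036, 980 and 808 (-0.08). Of the rest, DDX56 (0.37) and NOP16 (0.38) passed 1.2-fold, and WDR74 (0.24), NIP7 (0.14) and DDX18 (0.05) did not. PPAN, a pre-60S factor of the Brix family, had 33, 71 and 77, the lowest values of all 55 genes. It shares exon bases with the readthrough gene PPAN-P2RY11, and with a pseudocount of 10 its ratio was 0.91 in place of 1.08. Several others of the group share exon bases too, among them GRWD1 with KCNJ14 and RRS1 with AC009879.2.

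**Figure D2:**
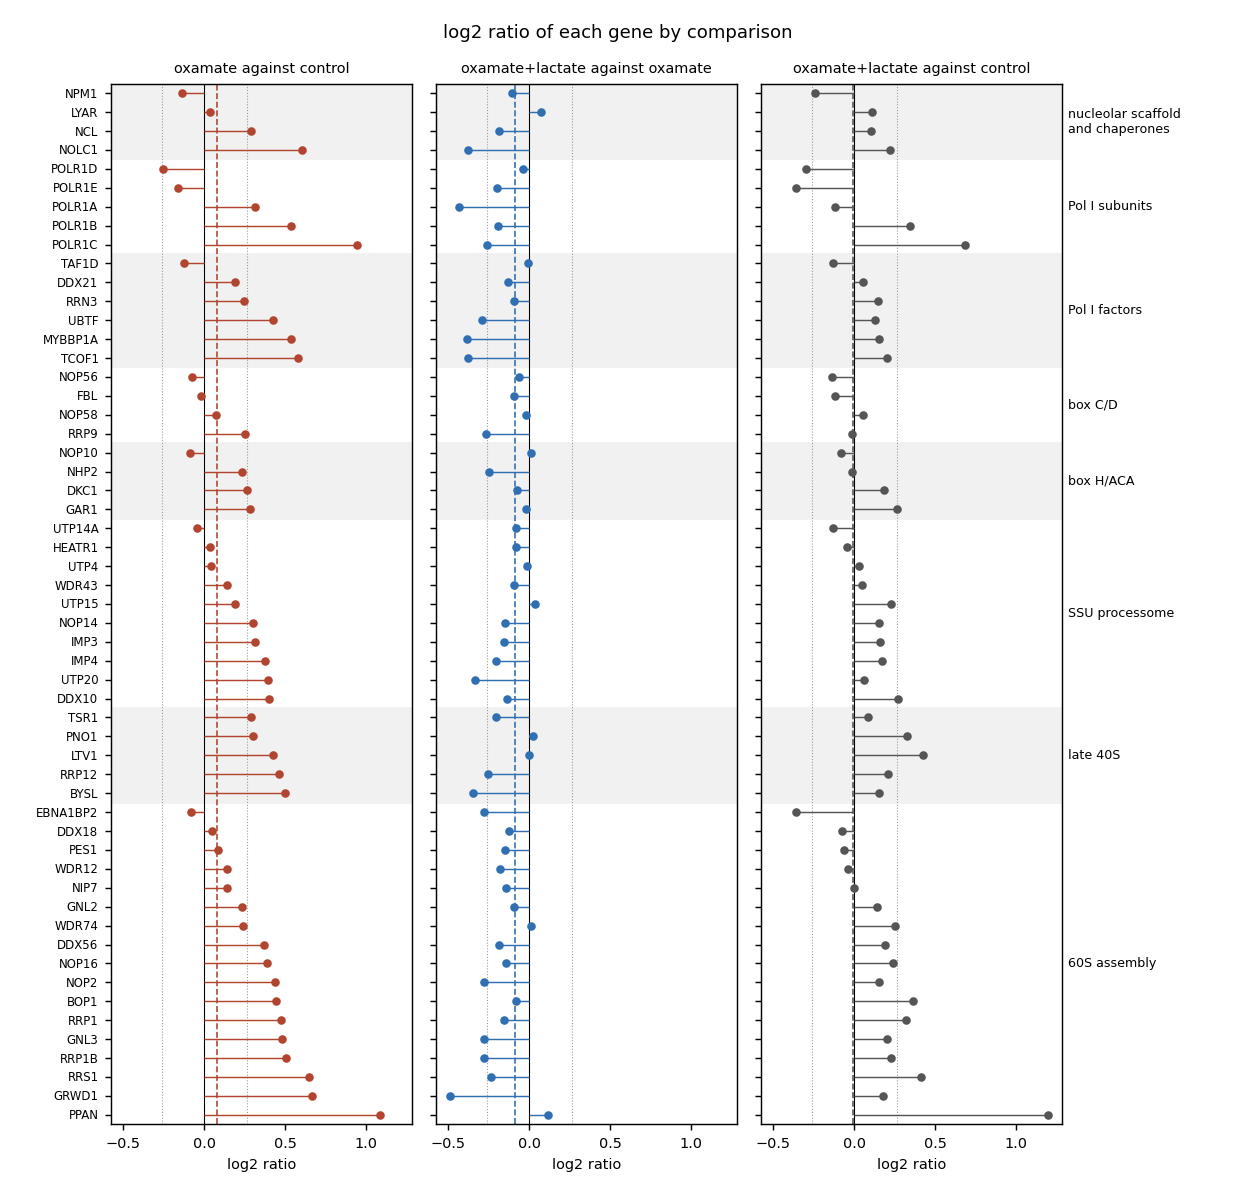
log2 ratio of each gene in the 3 comparisons, grouped by role and ordered by oxamate against control within a role. Dotted lines mark 1.2-fold and dashed lines the median of all genes (0.08, -0.09 and -0.01); all 5 late 40S factors lie past the upper dotted line for oxamate against control, and no gene lies past it for oxamate+lactate against oxamate.

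With lactate added to oxamate, the genes were slightly lower than with oxamate alone. The oxamate library serves both here and in oxamate against control, with opposite sign, so the ratios are not independent. A deviation of that library would move them in opposite directions. The median log2 ratio of the 55 genes was -0.15, from -0.49 for GRWD1 to 0.12 for PPAN. Below the median of all genes lay 38, and 17 were above it. At least 1.2-fold lower were 13 genes (23.6%), against 15.4% of all genes, and none was 1.2-fold higher, against 3.86%. Ratios above 0 were found for 6 genes, against 29.1% of all genes. None reached 1.5-fold in either direction (0.252% of all genes were that much higher and 0.903% lower), and 2-fold lower was also rare among all genes (0.00814%). The lowest were GRWD1, POLR1A at -0.44, MYBBP1A at -0.38 and NOLC1 at -0.38, followed by TCOF1 at -0.38, BYSL at -0.35 and UTP20 at -0.33. UBTF stood at -0.29, and NOP2, EBNA1BP2, RRP1B, GNL3 and RRP9, between -0.27 and -0.28, made up the 13. The highest, besides PPAN, were LYAR at 0.07, UTP15 at 0.04 and PNO1 at 0.02. The count of lower genes depends on the scaling: it was 5 with equal sums over genes, 6 with median-of-ratios factors and 7 with equal ERCC sums. The 15.4% of all genes holds for the values as deposited and not for these scalings. The median of the 55 genes stood at a distance of -0.06 from that of all genes, which a scaling of whole libraries leaves as it is. The median itself was -0.04 with equal sums over genes and -0.08 with equal ERCC sums. As deposited, the ERCC spike-ins also had a median of -0.08 in this comparison. By role, the RNA polymerase I regulators had a median of -0.21 and the late 40S factors also -0.21, while the box C/D proteins stood at -0.08 and the box H/ACA proteins at -0.05, near the median of all genes.

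Oxamate+lactate against control shares a library with each of the comparisons above and is not independent of them. In this comparison the 55 genes had a median of 0.15, from -0.36 for POLR1E to 1.198 for PPAN. A ratio above 0 was seen for 38, against 47.9% of all genes, and 39 exceeded the all-gene median. At least 1.2-fold higher were 9 genes (16.4%), against 15.4% of all genes, and 3 were lower (5.45%), against 16.7%. The count of higher genes was thus near the background, and that of lower genes below it. With equal ERCC sums the split was 18 higher and 2 lower in place of 9 and 3. The shares of all genes above hold for the values as deposited, not for that scaling. The highest besides PPAN were POLR1C at 0.68, LTV1 at 0.42 and RRS1 at 0.41, and the lowest were POLR1E, EBNA1BP2 at -0.36, POLR1D at -0.30 and NPM1 at -0.24. POLR1C and PPAN were the 2 genes at least 1.5-fold higher, against 2.99% of all genes, PPAN alone was 2-fold higher, against 0.545%, and none was lower by 1.5-fold or 2-fold, against 3.07% and 0.342%. Late 40S factors had a median of 0.21 with all 5 above the median of all genes, and 60S factors had 0.19. RNA polymerase I subunits had a median of -0.12, with 2 higher and 2 lower by 1.2-fold.

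**Figure D3:**
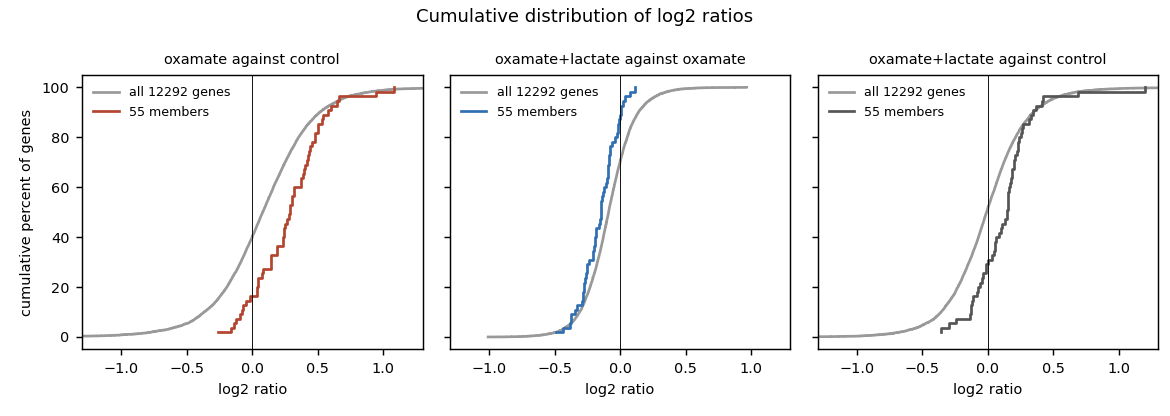
Cumulative percent of genes (vertical) by log2 ratio (horizontal) for the 55 genes and for all 12292 genes, by comparison; genes of more extreme ratio lie off the axis. The curve of the 55 genes lies to the right for oxamate against control (median 0.29 against 0.08), slightly to the left for oxamate+lactate against oxamate (-0.15 against -0.09), and to the right for oxamate+lactate against control (0.15 against -0.01).

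The 55 genes took up 0.744% of the summed gene values in control, 0.822% with oxamate and 0.777% with oxamate+lactate. For a rough comparison of genes, values were divided by exon length. That length covers all annotated transcripts of a gene and can exceed the transcript expressed, which lowers the value per kb. NPM1 led in control with 2385 normalized counts per kb, ahead of FBL with 2048 and NCL with 1790. These are among the highest values of all genes (percentiles 99.0, 98.9 and 98.6). NHP2 followed with 1239 and NOP56 with 900.0 per kb. At the other end stood PPAN with 19.0, DDX10 with 43.9 and UTP15 with 55.2 per kb. The catalytic subunits POLR1A and POLR1B had 107.9 and 82.1 per kb, percentiles 53.6 and 43.6. By level per length, the messenger RNA of fibrillarin and NOP56 thus stood well above that of the polymerase that makes their substrate. The 28 genes with the higher mean values had a median ratio of 0.29 for oxamate against control, and the other 27 had 0.28. For oxamate+lactate against oxamate these medians were -0.19 and -0.09, and for oxamate+lactate against control 0.09 and 0.16, so the genes of higher value had the lower medians there. Across the 55 genes the Spearman correlation of mean value with the ratio was -0.05, -0.38 and -0.32 in the 3 comparisons, as a description across genes measured in the same libraries.

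GC content moved with the ratios, in a direction that differed by comparison. Across the 55 genes, the Spearman correlation of transcript GC content with the ratio of oxamate against control was 0.40, and across 11225 genes it was 0.31. For oxamate+lactate against oxamate these were -0.39 and -0.23, and for oxamate+lactate against control 0.18 and 0.24. Exon length had -0.32 and -0.06 for oxamate+lactate against oxamate. It had 0.15 and 0.01 for oxamate against control, and -0.06 and -0.03 for oxamate+lactate against control. These are descriptions across genes that share the same libraries. The median GC content of the 55 genes was 48.4%, against 48.2% for all genes, so as a group they did not differ from it by much. For oxamate against control the 28 genes of higher GC content had a median ratio of 0.37 and the other 27 had 0.19. With the trend on GC content and transcript length removed, the median of the 55 genes in that comparison was 0.28. At least 1.2-fold higher were 32, a count for which no share of all genes is given. In the annotation, 22 of the 55 genes share exon bases with another coding gene. The 33 that do not had a median of 0.26 for oxamate against control. Of these, 17 were at least 1.2-fold higher, against 28.8% of all genes.

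Several of these genes carry snoRNA genes within their introns, which ties the making of the guides to transcription of the protein factors. By GENCODE annotation, 10 of the 55 (18.2%) hold at least 1 snoRNA gene on their strand within their bounds, against 2.08% of 11225 genes. They are NCL, POLR1C, TAF1D, NOP56, NOP58, DKC1, WDR43, TSR1, GNL3 and PPAN. TAF1D holds 8 and NOP56 holds 5, and both were lower in oxamate than in control (-0.12 and -0.07), whereas GNL3, with 6, was higher (0.48). The median ratio of oxamate against control was 0.28 for the 10 hosts and 0.30 for the other 45. All 233 annotated snoRNA hosts among the 11225 genes had a median of 0.04.

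Promoters were read from RefSeq (build GRCh38.p14) for the 250 bases before each gene's start, and 46 of the 55 genes had an entry. The E-box CACGTG, the core site bound by MYC and related factors, was searched on both strands, where it reads the same. It was present in 6 of 46 (13.0%), namely NOP10, UTP4, UTP14A, UTP20, IMP4 and EBNA1BP2, against 6.49% of all 27305 promoters and 9.44% of 8983 promoters of genes over the floor. The 6 genes had a median ratio of 0.00 for oxamate against control, and the other 40 had 0.28. The GC box GGGCGG, on either strand, was present in 32 of 46 (69.6%), against 69.0% of the promoters of genes over the floor, and TATAAA in 2 of 46 (4.35%), against 4.49%. Neither share stood far from that of expressed genes, and a match describes letters only. The promoters below are those of the E-box holders with the highest and lowest ratio (UTP20 at 0.39, chr12:101279855-101280104, plus strand, and NOP10 at -0.09, chr15:34343137-34343386, minus strand). To them are added the gene with the highest ratio among those that share no exon bases and have a promoter entry (POLR1B, chr2:112541786-112542035, plus strand) and the gene with the lowest of all (POLR1D, chr13:27620493-27620742, plus strand). Each is written 5' to 3' on the gene's strand and ends just before the start site, and capitals mark the E-box, the GC box (CCGCCC where it lies on the other strand) and the TATAAA motif in either orientation.
UTP20: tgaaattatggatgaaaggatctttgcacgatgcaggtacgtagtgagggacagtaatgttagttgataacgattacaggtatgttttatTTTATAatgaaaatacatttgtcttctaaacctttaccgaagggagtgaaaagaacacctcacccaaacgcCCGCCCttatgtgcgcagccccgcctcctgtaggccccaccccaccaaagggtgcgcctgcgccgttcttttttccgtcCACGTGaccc
NOP10: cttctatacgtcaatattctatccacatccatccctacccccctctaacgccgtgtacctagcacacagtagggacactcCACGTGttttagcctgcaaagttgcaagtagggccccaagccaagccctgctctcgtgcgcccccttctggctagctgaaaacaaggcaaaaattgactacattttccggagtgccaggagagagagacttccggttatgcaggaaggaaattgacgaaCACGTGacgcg
POLR1B: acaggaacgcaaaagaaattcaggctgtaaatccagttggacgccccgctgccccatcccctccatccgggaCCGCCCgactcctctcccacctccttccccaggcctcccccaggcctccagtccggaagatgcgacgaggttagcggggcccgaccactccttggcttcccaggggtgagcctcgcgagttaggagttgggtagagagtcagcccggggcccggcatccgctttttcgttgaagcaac
POLR1D: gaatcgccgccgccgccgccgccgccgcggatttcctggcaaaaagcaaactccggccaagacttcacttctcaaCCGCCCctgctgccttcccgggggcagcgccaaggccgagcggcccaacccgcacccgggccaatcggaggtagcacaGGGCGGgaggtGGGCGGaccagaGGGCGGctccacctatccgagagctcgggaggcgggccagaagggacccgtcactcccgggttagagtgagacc
The E-box begins 10 bases before the start site in UTP20 and 11 bases before it in NOP10, which has a further copy 170 bases before it. UTP20 and NOP10 were picked as the E-box holders with the highest and lowest ratio, so the difference between their ratios was set by that choice. POLR1B, with 1 GC box, had a ratio of 0.54, and POLR1D, with 4, had -0.26, and these were also picked by their ratios. A link between motifs and ratios was not tested.

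Further assembly factors, and further RNA polymerase I subunits and factors, had medians nearer to those of all genes. The 5 subunits shared by RNA polymerases, described below, did not for oxamate against control, with a median of 0.36. Of 77 further assembly factors of both subunits over the floor, 27 (35.1%) were at least 1.2-fold higher in oxamate than in control, against 28.8% of all genes, and 3 (3.90%) lower, against 15.1%, with a median of 0.14. A further factor, DDX47, was under the floor with 13, 24 and 20. Among those of the small subunit, DHX37, a helicase that releases the U3 snoRNA, had 686 in control, 1188 with oxamate and 950 with oxamate+lactate (0.79), and the kinase RIOK3 had 419, 320 and 365 (-0.39). Among those of the large subunit, the helicase DDX54 had 1375, 2000 and 1568 (0.54), and RSL24D1, which holds the place of a ribosomal protein in the pre-60S particle, had 1731, 1022 and 1188 (-0.76). Of 8 further RNA polymerase I subunits and factors, 2 (25.0%) were higher by 1.2-fold, near the share of all genes, and none lower, from TAF1B at -0.21 to TAF1C at 0.34. For oxamate+lactate against oxamate, 15 of the 77 (19.5%) were lower by 1.2-fold, against 15.4% of all genes, and none higher, against 3.86%. For oxamate+lactate against control, 8 of the 77 (10.4%) were higher, against 15.4% of all genes, and 4 (5.19%) lower, against 16.7%. The proteins that these factors assemble behaved otherwise: 83 cytosolic ribosomal protein genes had a median of -0.01 for oxamate against control, with 5 (6.02%) higher and 7 (8.43%) lower, both under the shares of all genes, and 18 of them lay above the median of all genes. With 1 library per condition the difference between the assembly factors and the ribosomal proteins was not tested.

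**Figure D4:**
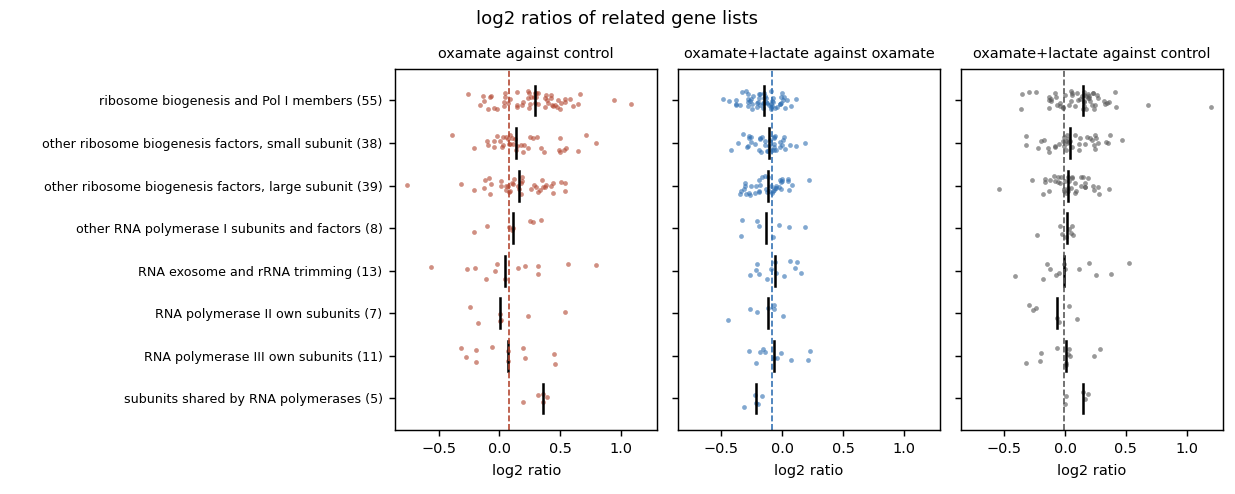
log2 ratio of each gene over the floor (points, number of genes in parentheses) in the 55-gene list and in 7 related lists, by comparison. Black bars are list medians and dashed lines the median of all genes; for oxamate against control the 55 genes (0.29) and the 5 subunits shared by RNA polymerases (0.36) have the highest medians.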

How the data were processed

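Polyadenylated RNA of 3 Jurkat cultures was sequenced, 1 library per condition, grouped by the treatment label. The submitters' processing notes list FastQC 0.11.9, STAR 2.7.1a, HTSeq 0.11.2 and build hg19, without saying what each was used for. The authors deposited 1 table of normalized counts, 17329 gene rows and 36 ERCC rows. Its entries are whole numbers although named normalized, and are handled here as a score that the authors rounded, with a normalization not given in the sources used here. Count models, which need raw counts, were not used, and the depth is unknown. An error in a library's scaling would shift every ratio of that library.

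From these values log2((value + 1)/(value + 1)) was computed for 12292 genes with a mean of at least 50, with Python 3.11.15 and pandas 2.3.3, and counted past folds of 1.2, 1.5 and 2. The computation was tested on simulated data. The members and lists were chosen with earlier results of these data known. Genes described in full were the highest and lowest of each role by the first comparison, the 4 highest and 4 lowest members in the other comparisons, and 9 well-known members, with the other members given in brief. Exon overlap, GC content and snoRNA genes came from GENCODE 29 (GRCh38, not the authors' build, so no gene coordinates are given), which covered 91.3% of the 12292 genes, and promoters from RefSeq. Alternatives were 3 other scalings, a pseudocount of 10, no floor, a floor of 200, leaving out genes that share exon bases and, chosen after seeing the data, removal of the GC and length trend and centring on the median of all genes.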

Additional observations from a re-analysis of the deposited data

How the results depend on the processing

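No paired analysis was possible because each condition has 1 library. Leaving out a replicate was not possible either. There were 9 alternatives. They were 3 scalings, a pseudocount of 10, no floor, a floor of 200 and the list without genes that share exon bases. The others were the GC and length trend removed and centring on the median of all genes. No median of the 55 genes changed sign, and each moved by less than the SD of the ERCC ratios. That SD is a spread of single spike-ins, so it is a wide bound for a median over genes. For oxamate+lactate against oxamate the median went from -0.15 to -0.04 with equal gene sums, against an ERCC SD of 0.11. The size of that median thus depends on the scaling. For oxamate against control, the count lower by 1.2-fold went from 0 to 1 with equal gene sums, with median-of-ratios factors and with centring. That of genes lower in oxamate+lactate than in oxamate went from 13 to 5 with equal gene sums, 6 with median-of-ratios factors, 7 with equal ERCC sums and 5 with centring. Genes higher in oxamate+lactate than in control went from 9 to 18 with equal ERCC sums. Shares of all genes past 1.2-fold are given only for the values as deposited. Without the 22 genes that share exon bases, which leaves 33, the counts above the median of all genes were 23, 11 and 23 in the 3 comparisons. In that shorter list 17 genes were higher by 1.2-fold in oxamate than in control (28.8% of all genes were). In oxamate+lactate 8 were lower than in oxamate (15.4%), and 4 were higher than in control (15.4%). Of the ratios of single genes under these settings, 1398 moved by less than the ERCC SD and 18 by more, and none past 1.2-fold changed sign. Of the 18, 10 came with the GC and length trend removed and 7 with equal gene sums. A scaling moves all genes of a comparison by nearly the same amount, so these counts are not separate checks. The depth in reads is not known, so no counting error can be given, and the spread between cultures is not measured.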

Other observations

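Subunits that RNA polymerases I, II and III share were higher in oxamate than in control in 5 of 5 genes, 4 of them by at least 1.2-fold (28.8% of all genes were), with a median log2 ratio of 0.36. POLR2F had 323, 423 and 361 normalized counts in the control, oxamate and oxamate+lactate libraries, and POLR2K, the lowest of them by ratio, had 333, 382 and 332. The own subunits of RNA polymerase II had a median of 0.01, although the largest, POLR2A, had 3719, 5411 and 3970 (0.54), while POLR2G had 522, 442 and 443 (-0.24). The 11 own subunits of RNA polymerase III had a median of 0.07, with 2 higher and 2 lower by 1.2-fold (18.2% each, against 28.8% and 15.1% of all genes), from POLR3GL at -0.32 to POLR3E at 0.45.

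The RNA exosome and rRNA trimming enzymes had a median of 0.05 for oxamate against control. By 1.2-fold 4 of 13 genes (30.8%) were higher and 2 (15.4%) lower, shares close to the 28.8% and 15.1% of all genes. EXOSC4, a ring subunit, had 240 in control, 417 with oxamate and 346 with oxamate+lactate (0.79), and EXOSC8, also of the ring, had 709, 480 and 533 (-0.56). Subunits of the same ring thus stood at opposite ends of the list.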
